A study of Mus musculus with 8 samples.

Results

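The comparison described here sets hearts labelled MT-/- against hearts labelled MT+/+ when both had received saline only, so that it shows the difference between the genotypes before any drug effect. It rests on 4 of the study's 8 mouse heart arrays, chosen by the source names that combine genotype with saline: 2 arrays labelled MT-/- and 2 labelled MT+/+. All the mice were males 6 to 8 weeks old. MT-/- stands for mice null for metallothioneins I and II, and MT+/+ for the corresponding wild type. The saline groups were injected once with the same volume of saline that carried doxorubicin (DOX, a cardiotoxic anthracycline, 15 mg/kg into the peritoneal cavity) in the other 4 mice, and hearts were taken on day 4. The other 4 arrays are 2 MT+/+ and 2 MT-/- hearts after DOX, and they served here to estimate the spread and to measure the same genotype difference in separate animals. The labels describe neither the null alleles nor the strain backgrounds, nor whether the wild types were littermates, and the arrays are called biological replicates without a statement of how many hearts each one holds.

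Metallothioneins are small cysteine-rich proteins that bind zinc and copper and scavenge reactive oxygen species. Their genes are switched on by the zinc-sensing transcription factor Mtf1, which binds metal response elements, and by glucocorticoids. In the heart they have been studied as a defence against oxidative damage, including that caused by anthracyclines, which is why a null mouse is compared with its wild type.

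Sequence before the annotated starts of the targeted genes is shown because these genes define the genotype. The windows hold the 250 bases before each RefSeq transcription start on the plus strand of mouse chromosome 8 (GRCm38.p6), at chr8:94178839-94179088 for Mt1 and at chr8:94172368-94172617 for Mt2. Capitals mark each match, on either strand, to the core of the metal response element, searched as TGCACNC or TGCGCNC.
Mt1: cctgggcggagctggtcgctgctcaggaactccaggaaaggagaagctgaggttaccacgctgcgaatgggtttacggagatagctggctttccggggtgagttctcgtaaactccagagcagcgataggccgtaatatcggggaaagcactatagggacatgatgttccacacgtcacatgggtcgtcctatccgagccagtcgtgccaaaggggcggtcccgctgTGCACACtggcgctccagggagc
Mt2: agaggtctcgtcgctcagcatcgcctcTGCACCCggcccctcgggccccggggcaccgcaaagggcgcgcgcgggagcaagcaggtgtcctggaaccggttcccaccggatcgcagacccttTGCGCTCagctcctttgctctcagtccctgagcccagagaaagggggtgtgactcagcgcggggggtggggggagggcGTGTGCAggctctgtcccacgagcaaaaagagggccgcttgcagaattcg
The Mt1 window held 1 match and the Mt2 window held 3. Windows of the same length with at least 1 match made up 21.4% of 32851 in the RefSeq promoter table, and those with at least 3 made up 0.77%. With the 50 bases after the start included, the counts were 3 for Mt1 and 4 for Mt2, against 1.31% of windows with at least 3 and 0.295% with at least 4. The windows were cut at the annotated starts and sequence further on was not searched, so these counts are not totals for either promoter. A match is a string of letters and says nothing of whether the factor binds there.

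The tissue labels were set against marker genes first. The 14 ventricular cardiomyocyte markers were all measured, and their summed normalized intensity lay between 149551 and 153556 on the 4 saline arrays. Of the marker lists of other tissues, 7 of 14 skeletal muscle genes, 7 of 12 of white fat, 6 of 8 of brown fat, 3 of 10 of lung epithelium, 6 of 9 of liver and 3 of 9 of thymus were bright enough to be tested. The sums of these tested markers lay between 9928 and 10594 for skeletal muscle, 11226 and 12168 for white fat, 19552 and 20825 for brown fat, 256 and 292 for lung epithelium, 699.9 and 809 for liver and 422 and 505 for thymus. Sums of different lists rest on different probes and are not levels to be compared with each other. Ckm is on both the skeletal muscle and the ventricular list. Cox7a1 and Cox8b of the brown fat list are also on the list of oxidative phosphorylation genes described below. These 2 sums therefore do not measure other tissue alone. The correlation of log2 intensities between arrays, given as a description over the 24751 tested probe sets, was 0.978 between the MT+/+ saline arrays and 0.984 between the MT-/- saline arrays. It was 0.985 between MT+/+ saline 2 and MT-/- saline 2, so an array's own group was not always its nearest neighbour. The ratio of 3' to 5' actin control signal, a measure of RNA integrity, was 1.15 and 1.24 in MT+/+ and 1.14 and 1.23 in MT-/-.

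The targeted genes did not show lower signal in the hearts labelled MT-/-. Mt1 gave a normalized intensity of 3817 and 4000.5 in MT+/+ and 4780.5 and 5137 in MT-/-. Mt2 gave 479 and 506 in MT+/+ and 982 and 946 in MT-/-. Both genes were higher on each MT-/- array than on each MT+/+ array, by 0.34 ± 0.12 (log2, SE of the limma fit, 2 arrays per group) for Mt1 and by 0.95 ± 0.30 for Mt2. Neither passed the threshold, with limma adjusted p of 0.512 and 0.451. A second Mt1 probe set differed by 0.05. Mt4, a metallothionein of squamous epithelia, gave 63.1 and 62.9 against 78 and 78.3, a difference of 0.25 (adjusted p = 0.646), and Mt3, the brain form, was below the array median on all 8 arrays and was not tested. The labels do not place the probes relative to the targeted mutations, so these probe sets cannot check the genotype labels, and every direction below rests on the labels alone.

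Under saline, 46 of 24751 tested probe sets differed between the genotypes at a limma adjusted p below 0.05 (0.186%). They were 27 higher in MT-/- (0.109%) and 19 lower (0.0768%), and 2133 probe sets had an unadjusted p under 0.05 (by gene, 1125 of 13008, or 8.65%). The 46 had log2 differences between 0.92 and 3.07 in size, with a median size of 1.35. In all 46 the 2 groups of arrays did not overlap, against 41.4% of all tested probe sets. The 46 were chosen by p on these same arrays, so that separation comes with the choice and is no separate support. Of the 46, 42 carried a single gene symbol and came from 33 genes, while 4 carried several symbols or none and are not named. Counting each gene once by its brightest tested probe set, 23 of 13008 genes passed (0.177%), 14 higher in MT-/- (0.108%) and 9 lower (0.0692%), and these 23 are described next by what they do. Without 1 array the number of called probe sets was 13 (MT+/+ saline 1 left out), 19 (MT+/+ saline 2), 17 (MT-/- saline 1) or 20 (MT-/- saline 2), and 10 of the 46 kept their call whichever array was left out: both probe sets of Cap1, Ndrg4 and Plaat1, and 1 each of Il15, Paip1, Xaf1 and Zfp991.

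**Figure D1:**
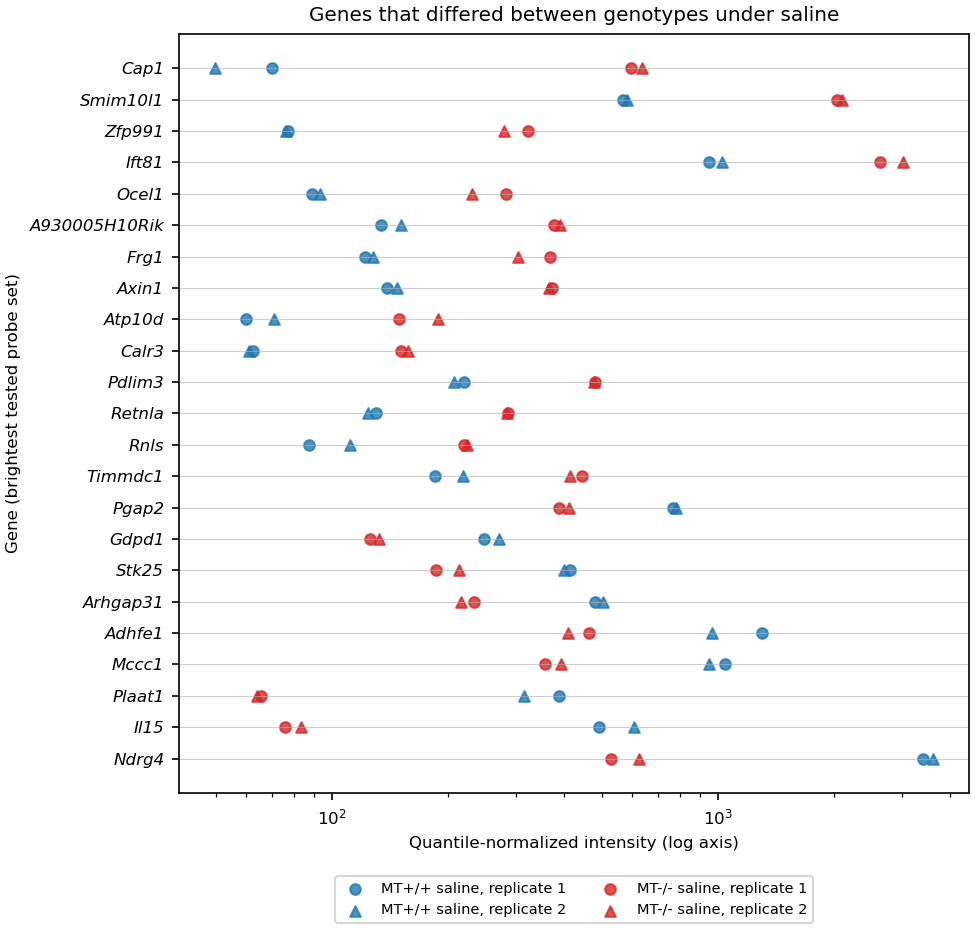
Quantile-normalized intensity on a log axis for the 23 genes whose brightest tested probe set passed the threshold; each point is 1 saline array, blue for MT+/+ and red for MT-/-, with circles and triangles for replicates 1 and 2. In every gene the 2 red points lie apart from the 2 blue points, most widely for Cap1 (49.7 and 70.2 against 597 and 636), Ndrg4 and Il15. The genes were chosen on these same arrays, so the gaps come with the choice.

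The widest separation was that of Cap1, which encodes an adenylyl cyclase-associated protein that recycles actin monomers. Its normalized intensity was 70.2 and 49.7 in MT+/+ and 597 and 636 in MT-/-. Both MT+/+ arrays lay below the array median for this probe set, and the MT-/- arrays lay far above it. The difference was 3.07 ± 0.15 (8.4-fold on the log2(intensity + 16) scale, adjusted p = 2.4e-04). A second Cap1 probe set gave 90.5 and 59.3 against 443 and 444, a difference of 2.36 (adjusted p = 0.00106). Pdlim3, a PDZ and LIM domain protein of the sarcomere's Z-disc, was also higher in MT-/-, at 482 and 479 against 220.4 and 207 (1.11 ± 0.16, adjusted p = 0.0446). Among genes of cell shape and transport, Ift81, which carries tubulin in the intraflagellar transport of cilia, rose from 951 and 1028 to 2632 and 3029.8 (2.83-fold on the same scale, SE 0.22 in log2, adjusted p = 0.0446). In the other direction, Arhgap31, which switches off the small GTPases Rac1 and Cdc42, was 480.0 and 506 in MT+/+ and 233 and 216 in MT-/- (-1.08, adjusted p = 0.0344), and the kinase gene Stk25 was 413 and 399.7 against 186 and 214 (-0.97, adjusted p = 0.0315).

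The largest fall was that of Ndrg4, a gene of the N-myc downstream-regulated family expressed in heart and brain. It gave 3395 and 3610.4 in MT+/+ and 531 and 626 in MT-/-. The lower group was still well above the array median, so that the change was measured on both sides. The difference was -2.57 ± 0.17 (5.94-fold lower on the same scale, adjusted p = 6.98e-04), and the second Ndrg4 probe set gave 2494 and 2894 against 326 and 411 (-2.82). Axin1, a scaffold of the complex that degrades beta-catenin in Wnt signalling, was 139 and 148 in MT+/+ and 372 and 366 in MT-/- (1.27 ± 0.12, adjusted p = 0.00636).

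Among the genes that passed were 2 with known roles in immunity. Il15, the cytokine that sustains natural killer cells and memory CD8 T cells, was 494 and 608 in MT+/+ and 75.5 and 83.3 in MT-/-. It fell by 2.56 on the log2 scale (SE 0.18, adjusted p = 9.89e-04). Retnla, a secreted product of alternatively activated macrophages, was 130.1 and 124 in MT+/+ and 286 and 285 in MT-/- (1.07 ± 0.12, adjusted p = 0.0114). Beside these, the 14 tested macrophage markers summed to 11484 and 12928 in MT+/+ and 10448 and 11408 in MT-/-, and the 5 tested markers of T, B and NK cells to 861 and 756 against 729.6 and 720.3. Of the lymphocyte list, 11 of 16 genes were not tested because they were dim or absent from the array. In whole-heart RNA, fewer cells of a type and less RNA per cell cannot be told apart.

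Metabolic and lipid genes made up a further group. Mccc1, a subunit of the mitochondrial carboxylase that breaks down leucine, was 1043 and 947 in MT+/+ and 356 and 393 in MT-/- (-1.37 ± 0.15, adjusted p = 0.013). Its dimmer probe set differed by -0.39 and did not pass (adjusted p = 0.532). Adhfe1, a mitochondrial hydroxyacid-oxoacid transhydrogenase, was 1305 and 968 against 465 and 409 (-1.34, adjusted p = 0.0253). Plaat1, a phospholipase and acyltransferase, fell from 387 and 315 to 65.4 and 64.1 (-2.18 ± 0.13, adjusted p = 3.95e-04), which left the MT-/- arrays below the array median. The lipid phosphodiesterase gene Gdpd1 fell by 0.93 and Pgap2, which remodels the lipid of GPI anchors, fell by 0.92. A dimmer Gdpd1 probe set differed by only -0.14 (adjusted p = 0.842). Other mitochondrial and membrane genes stood on the higher side. Timmdc1, an assembly factor of respiratory complex I, was 185 and 219 in MT+/+ and 445 and 414 in MT-/- (1.04, adjusted p = 0.0375). Atp10d, a phospholipid flippase, was 59.8 and 70.9 against 149 and 188 (1.18, adjusted p = 0.0417), and Rnls, the flavoprotein renalase, was 87.3 and 112 against 219.7 and 224 (1.05, adjusted p = 0.0246).

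The remaining 6 genes that passed were higher in MT-/-. Smim10l1, a small integral membrane protein gene, rose from 569 and 583 to 2034 and 2099 (1.81 ± 0.16, adjusted p = 0.00365). Its other probe set differed by 0.24, with groups that overlapped. Zfp991, a zinc finger gene, was 77 and 76.1 against 322 and 279.5 (1.77), and Calr3, a testis form of the chaperone calreticulin, was 62.4 and 61.2 against 151 and 157 (1.13). Frg1, a gene with a role in RNA processing, was 122 and 128 in MT+/+ and 367 and 304 in MT-/- (1.31, adjusted p = 0.00844). Ocel1, which encodes a protein with an occludin and ELL domain, rose by 1.34, and the RIKEN transcript A930005H10Rik by 1.33. For 17 of the 46 probe sets, the lower group lay below the array median. No detection calls were at hand, so the size of those differences depends on signal that may be near background. Such a probe set could pass the filter, at or above the median on at least 2 of 8 arrays, through the higher genotype alone. The brightest Cap1 probe set did so, with every MT+/+ array below the median.

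The same genotype difference was then read from the 4 hearts taken after DOX, which are separate arrays on both sides of the comparison. All 46 probe sets differed in the same direction there, against 63% of all tested probe sets, and 45 of the 46 had groups that did not overlap in that direction, against 23.9%. After DOX, 32 of the 46 passed the threshold again, where 70 of 24751 probe sets passed in all (0.283%); the 32 are 69.6% of the saline calls and 45.7% of the DOX calls. Both comparisons share 1 estimate of the spread from all 8 arrays, so probe sets called under saline were already chosen for a low spread, and passing again is not an independent repeat. The median difference, taken in the saline direction, was 1.26 after DOX and 1.35 under saline, where the probe sets had been chosen. Cap1 gave 56.6 and 54 in MT+/+ after DOX and 445 and 416 in MT-/- (2.65). Ndrg4 gave 2854 and 2185 against 256 and 319 (-3.06), and Il15 gave 269.6 and 381 against 42.8 and 54.7 (-2.38). In these 3 genes the MT-/- arrays stood apart from the MT+/+ arrays under both treatments.

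**Figure D2:**
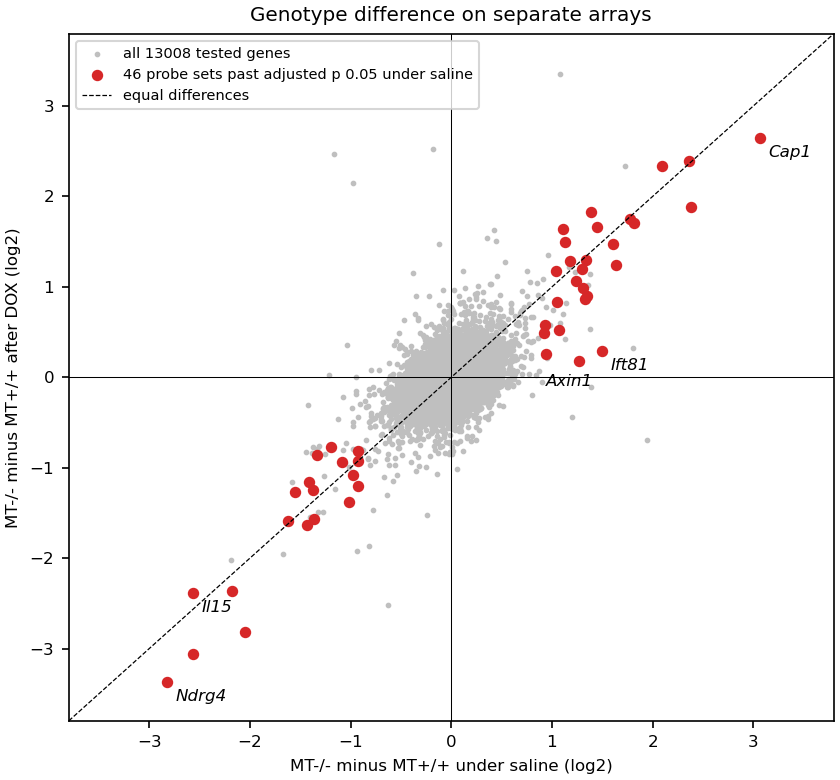
Genotype difference (MT-/- minus MT+/+, log2) under saline on the x axis and after DOX on the y axis; grey points are the 13008 tested genes, red points the 46 probe sets past the threshold under saline, and the dashed line marks equal differences. All 46 red points lie in the lower left or upper right, with Axin1 (1.27 under saline and 0.18 after DOX) closest to the x axis.

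Of the 46 differences, 29 were smaller in size after DOX and 17 larger, and no difference between the treatments passed the threshold. The limma interaction called 0 of 24751 probe sets (573 had an unadjusted p under 0.05), and 9 of the 46 had an unadjusted p under 0.05. The smallest interaction p among the 46 was that of Axin1, whose MT-/- arrays read 372 and 366 under saline and 169 and 185 after DOX, while its MT+/+ arrays read 139 and 148, then 165 and 144. Its interaction was -1.09 ± 0.17 (unadjusted p = 1.6e-04, adjusted p = 0.901). Ift81 likewise gave 739 and 1244 in MT+/+ after DOX and 1194 and 1164 in MT-/-, the 1 of the 46 whose groups overlapped there. Tbc1d23, a regulator of vesicle capture at the Golgi, differed by 0.94 under saline and by 0.26 after DOX, and Retnla by 1.07 and 0.52. Pdlim3 went the other way, with 1.11 under saline and 1.64 after DOX.

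Many genes are measured by more than 1 probe set, which gives a check within each array. Of 5300 genes with at least 2 tested probe sets, 2725 had all of them on the same side of 0 (51.4%), and in 551 all were on the same side with groups that did not overlap (10.4%), 337 of them higher in MT-/- and 214 lower. Across genes, the differences of the 2 brightest probe sets had a Pearson correlation of 0.374 and the same sign in 61.3%; genes are not independent replicates, and both probe sets of a gene read the same RNA. Of the 33 genes with a called probe set, 23 had at least 2 tested. In 15 of these 23 (65.2%) all probe sets had the same sign, and in 13 they also had groups that did not overlap. For the called probe sets themselves, that separation comes with the choice.

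**Figure D3:**
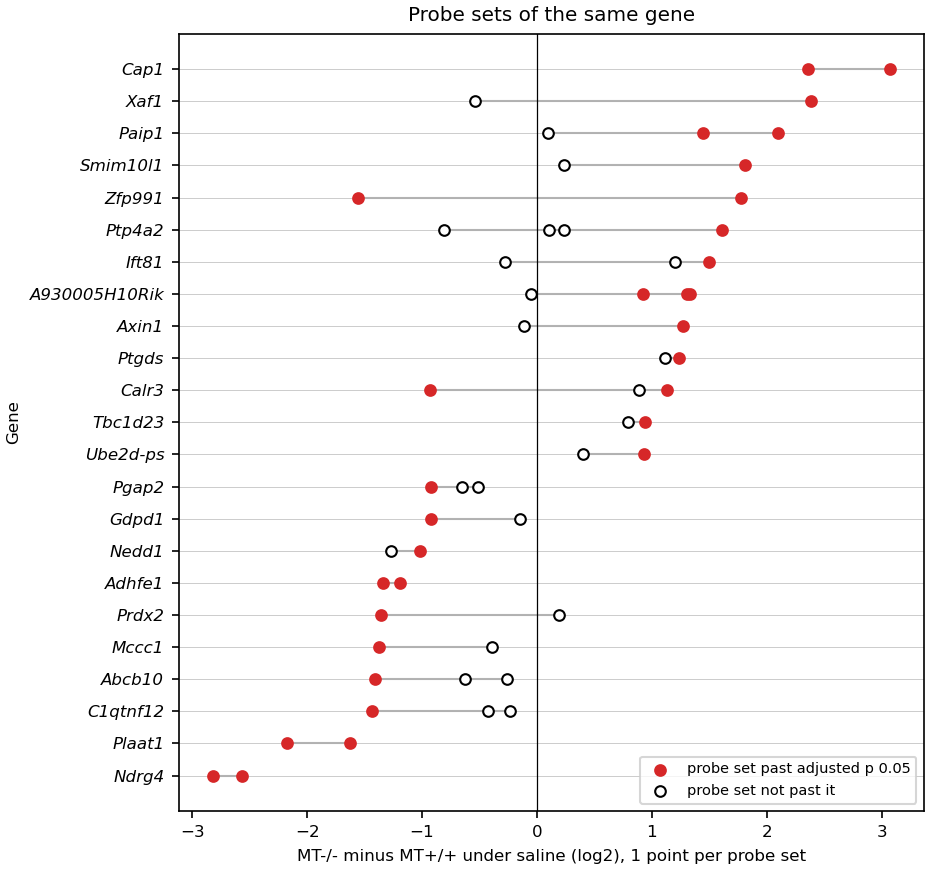
Genotype difference under saline (MT-/- minus MT+/+, log2) for each tested probe set of the 23 genes that had a called probe set and at least 2 tested; filled points passed adjusted p 0.05, open points did not. Both probe sets lie far from 0 on the same side for Cap1, Ndrg4, Plaat1 and Adhfe1, and on opposite sides of 0 for 8 genes, with both ends called for Zfp991 (1.77 and -1.56) and Calr3 (1.13 and -0.93).

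Agreement was fullest for Cap1, Ndrg4, Plaat1 and Adhfe1, whose 2 probe sets each all passed. The second probe set of Plaat1 gave 205 and 223 in MT+/+ and 60 and 56.9 in MT-/- (-1.63), and that of Adhfe1 gave 745 and 559.6 against 273 and 273 (-1.19). Pgap2 had 3 probe sets, all lower in MT-/-, of which 1 passed. Nedd1, which anchors gamma-tubulin at the centrosome, passed in its dimmer probe set (-1.01, adjusted p = 0.0151) and missed in its brighter one (-1.27, adjusted p = 0.0744). Ptgds, a prostaglandin D2 synthase, passed in 1 probe set at 1111 and 1277 against 2586 and 3095 (1.24, adjusted p = 0.0446). Its brighter probe set gave 2492 and 3431 against 5769 and 6991 (1.11, adjusted p = 0.0787).

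In 8 genes the probe sets pointed in opposite directions: A930005H10Rik, Axin1, Calr3, Ift81, Prdx2, Ptp4a2, Xaf1 and Zfp991. For Zfp991, 1 probe set rose from 77 and 76.1 to 322 and 279.5 while the other fell from 121 and 186 to 39 and 42 (-1.56, adjusted p = 0.0253). For Calr3, 2 of 3 probe sets were higher in MT-/-, and the third gave 148 and 159 against 74.9 and 71 (-0.93, adjusted p = 0.0385). Both genes therefore have calls in both directions, and their gene-level direction is unsettled. Axin1's other probe set gave 191 and 121 against 143 and 136, which overlap.

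The next genes lay outside the rule for named genes and were singled out after their values were seen, because their brightest probe set did not pass and a dimmer one did. Xaf1, an interferon-induced antagonist of the apoptosis inhibitor XIAP, gave 70.4 and 84.4 against 441 and 499 in 1 probe set (2.38, adjusted p = 3.95e-04) and 1015 and 841 against 628 and 633 in its brightest (-0.54, adjusted p = 0.36). Paip1, a translation factor that binds the poly(A)-binding protein, gave 22.2 and 22.2 against 157 and 138 in 1 probe set (2.10, adjusted p = 3.95e-04) and 42 and 39.9 against 152 and 128 in another (1.45, adjusted p = 0.00636). Its brightest probe set differed by 0.10 with groups that overlapped. Prdx2, a peroxiredoxin that removes hydrogen peroxide, gave 219 and 293 against 82.8 and 95.4 (-1.36), while its main probe set, the brighter one, gave 3699 and 3749 against 4186 and 4309.8 (0.19, adjusted p = 0.573). Ptp4a2, a membrane-bound tyrosine phosphatase, had 1 probe set at 786 and 661 against 2207 and 2261 (1.61) and its brightest at 2459 and 2444 against 1261 and 1545 (-0.81, adjusted p = 0.0788). In these 4 genes the probe sets did not agree, and the probe sequences that would place them on the transcripts were not analysed here. Abcb10, a mitochondrial membrane transporter (-1.41), C1qtnf12, a secreted adipokine (-1.44), and the pseudogene Ube2d-ps (0.93) likewise passed only in a dimmer probe set, with the same sign in their others.

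In the next 6 genes all probe sets had groups that did not overlap, and none passed. Mmp2, a gelatinase that degrades collagen, was 567 and 529 in MT+/+ and 1067 and 1019.8 in MT-/- (0.91, adjusted p = 0.19). Cd59a, an inhibitor of complement lysis, was 1234 and 1359 against 616 and 253 (-1.67 ± 0.38, adjusted p = 0.261), and its MT-/- arrays also lay far apart from each other. Aplnr, the apelin receptor of endothelium, was 396 and 527 against 1162 and 989 (1.20, adjusted p = 0.331), and after DOX the difference was -0.44. Ccn3, a matricellular protein, was 49.4 and 57.3 against 115 and 161 (1.14, adjusted p = 0.099). Iigp1, an interferon-induced GTPase, was 3345 and 1279 against 853 and 1105 (-1.08, adjusted p = 0.579), where most of the gap came from MT+/+ saline 1. Rgs2, a regulator of G-protein signalling, was 1552 and 1348 against 763 and 1081 (-0.66, adjusted p = 0.615). Of the genes nearest to the threshold on the lower side, the mitochondrial protein gene Nipsnap2 was 1342 and 1187 against 710.4 and 676 (-0.85), Fbxo44, a ubiquitin ligase subunit, was 241 and 295 against 125 and 131 (-0.97), and Ifi27l2b, of an interferon-induced family, was 722 and 558 against 288 and 192 (-1.37), each at an adjusted p of 0.0744. The transcripts 4833420G17Rik (-0.82, adjusted p = 0.0601) and A230072C01Rik (-0.80, adjusted p = 0.0757) also missed it. A dimmer Fbxo44 probe set differed by -0.03, with groups that overlapped.

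The largest number of genes with a called probe set lay on chromosome 8, which carries Mt1 and Mt2. Of 702 tested genes on chromosome 8, 8 had a called probe set (1.14%), against 25 of 12246 on the other chromosomes (0.204%). Chromosome 16, which is among those others, had 5 of 415 (1.2%), and chromosomes 9, 12, 14, 15, 18, X and Y had none. The 8 are Frg1, Pdlim3, Ocel1, Calr3, Il15, Prdx2, Ndrg4 and Abcb10, of which the first 3 were higher in MT-/- and the last 4 lower in the probe sets that passed, while Calr3 had calls in both directions. None of the 20 nearest tested neighbours of Mt1 and Mt2, 10 on each side, had a called probe set, and their median difference was -0.08. The nearest called gene was Ndrg4, 27 tested genes away on the distal side. Prdx2 was 53 and Il15 96 tested genes away on the proximal side, and Frg1 was the farthest at 274. Herpud1, a neighbour with a role in the degradation of misfolded proteins of the endoplasmic reticulum, gave 1486 and 1304 against 1120.1 and 1018, which did not overlap but did not pass.

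**Figure D4:**
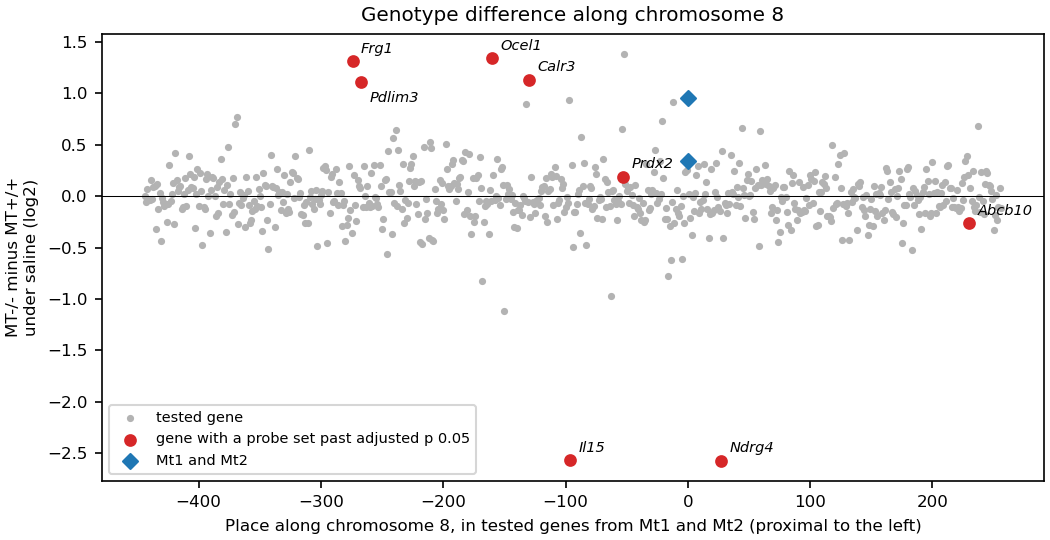
Genotype difference under saline (log2, brightest tested probe set) of 702 tested genes in their RefSeq order along chromosome 8, counted from Mt1 and Mt2 with the proximal side to the left; red marks the 8 genes with a called probe set and blue diamonds Mt1 and Mt2. The red genes lie between 274 genes on the proximal side and 230 on the distal side, and none is among the 20 nearest; Prdx2 and Abcb10 lie near 0 because a dimmer probe set of each was the one that passed.

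For the 33 called genes the promoter table held windows for 22, and 9 of these had at least 1 match to the metal response element core described for Mt1 and Mt2. A gene was counted if any of its windows held a match, and no such share was computed over all genes, so 9 of 22 has nothing to be set against. By window, 11 of 35 held a match (31.4%), against 21.4% of all windows.

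Lists of genes around metallothionein function and heart physiology were described by their counts and medians, and the median difference over all 13008 tested genes was 0.00. No gene of these lists passed in its brightest tested probe set, except Il15, which is on the list of inflammation genes. Prdx2, on the list of peroxide and superoxide enzymes, passed only in a dimmer probe set (-1.36, adjusted p = 0.0114). Among 19 tested metallothionein and zinc handling genes the median was 0.07, with 12 higher in MT-/- and Mt2 the farthest from 0. Mtf1 gave 234 and 194 in MT+/+ and 177 and 189 in MT-/- (-0.20, adjusted p = 0.706). The zinc exporter Slc30a1, a classic Mtf1 target, gave 366 and 359.8 against 371 and 374. NRF2 target antioxidant genes had a median of 0.06 over 21 genes, with 5 higher and 5 lower without overlap between the groups. Over all genes, groups without overlap made up 21% higher and 20.7% lower. Peroxide and superoxide enzymes had a median of 0.11 over 17 genes, with 9 higher and 2 lower without overlap, none of which passed by its brightest probe set. The median was 0.26 with median centring, and Prdx2 is counted here by its brighter probe set (0.19). In copper and iron handling the median over 18 genes was 0.04, and Fth1, the ferritin heavy chain, gave 11456 and 12262 against 12262 and 13246.

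**Figure D5:**
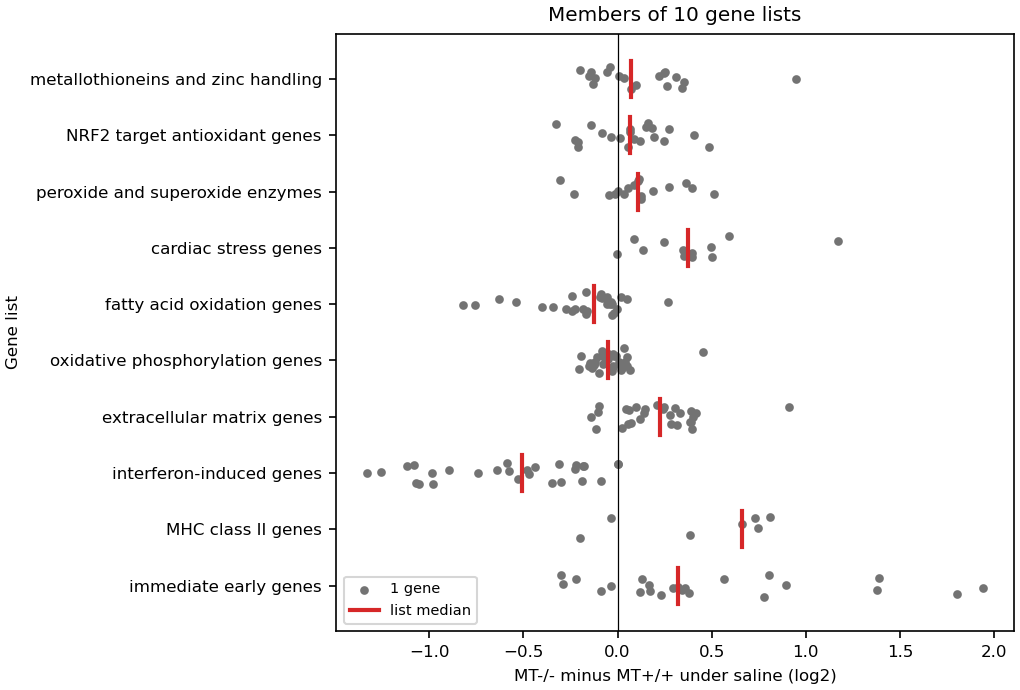
Genotype difference under saline (MT-/- minus MT+/+, log2) of the tested members of 10 gene lists, with 1 point per gene (brightest tested probe set) and a red bar at each list's median. The interferon-induced genes lie mostly below 0 (median -0.51), the MHC class II genes (median 0.66) and cardiac stress genes (median 0.37) mostly above it, and the metallothionein, NRF2 and oxidative phosphorylation lists near 0.

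Interferon-induced genes, which restrict viral replication, had the lowest median of the lists, at -0.51 over 28 genes. Of these, 27 were lower in MT-/- against 50% of all genes, and 20 were lower without overlap, against 20.7% of all genes. None passed. Ifit1 gave 387 and 199.8 in MT+/+ and 99.3 and 103 in MT-/- (-1.33, adjusted p = 0.235), and Bst2, a tethering factor for budding virions, gave 751 and 356 against 233 and 226 (-1.12, adjusted p = 0.323). The list's summed intensity was 17764 on MT+/+ saline 1 and 10839 on MT+/+ saline 2, against 8439.8 and 8997 in MT-/-. The replicates of MT+/+ thus differed by more than MT+/+ saline 2 differed from the MT-/- arrays. Without MT+/+ saline 1 the median was -0.30, and without MT+/+ saline 2 it was -0.72. After DOX the list's median was -0.25.

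MHC class II genes, which present antigen on macrophages, dendritic and B cells, had the highest median, at 0.66 over 7 genes. H2-Eb1 gave 637 and 427 against 805 and 1066 (0.81, adjusted p = 0.331), H2-Ab1 1069 and 690.5 against 1384 and 1486, and the invariant chain gene Cd74 1629 and 1048 against 2063 and 2360.1. These genes did not overlap between the groups, while Ciita, their transactivator, singled out after its value was seen, differed by -0.04. Of the 7 genes, 5 were higher in MT-/- and 2 lower, with the lowest at -0.20. The list's sum was 5078 and 3444 in MT+/+ and 6252 and 7265 in MT-/-, and its median was 0.60 after DOX. Without MT+/+ saline 1 the median was 0.91, without MT+/+ saline 2 it was 0.40. The macrophage markers given beside Retnla had 2 of 14 above 0 and a median of -0.16, which was 0.01 with median centring.

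Genes of cardiac stress, matrix and fuel use had medians closer to 0. Over all genes, 21% were higher and 20.7% lower without overlap between the groups, the shares to set beside the counts in this paragraph. Of 12 cardiac stress genes 11 were higher in MT-/-, 8 without overlap, and the median was 0.37. Nppa, the atrial natriuretic peptide, gave 2200.4 and 1420.5 in MT+/+ and 3786 and 4235 in MT-/- (1.17 ± 0.24, adjusted p = 0.199), and the fetal myosin gene Myh7 gave 198 and 199.6 against 278 and 295 (0.49, adjusted p = 0.31). Nppa also belongs to the atrial marker list, whose sum was 9201 and 8572 in MT+/+ and 11210.4 and 12019 in MT-/-. The median of the 12 atrial markers was -0.09, and 0.19 without MT+/+ saline 1, and the part of atrial tissue in the Nppa difference was not tested. Fibroblast markers had a median of 0.29 over 14 genes, 9 higher without overlap, which was 0.13 without MT-/- saline 2. Extracellular matrix genes had a median of 0.22 over 28 genes, 14 higher without overlap, and of 0.38 when arrays were centred on their medians instead of quantile-normalized. Fatty acid oxidation genes had a median of -0.13 over 28 genes, of which 17 were lower without overlap and 1 higher. That median was -0.05 with median centring and -0.08 without MT+/+ saline 1. Pdk4, the kinase that turns off glucose oxidation, gave 3974 and 4155 against 3129 and 1681 (-0.82, adjusted p = 0.437). Oxidative phosphorylation genes had a median of -0.05 over 33 genes. Glucocorticoid and fasting response genes, a list that holds Mt1, Mt2 and Pdk4, had a median of -0.29 over 22 genes. Of these, 12 were lower and 2 higher without overlap. That median was -0.12 with median centring and -0.49 without MT+/+ saline 1, and the list's genotype median after DOX was 0.34.

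Immediate early genes, which respond within minutes to stimulation, were set apart by a single array. Their median was 0.32 over 23 genes, and their sum was 9646 and 11535 in MT+/+, 11139 on MT-/- saline 1 and 19658 on MT-/- saline 2. Egr1, a zinc finger transcription factor, gave 131 and 183 in MT+/+ and 195 and 1666 in MT-/-. Without MT-/- saline 2 the median was 0.08, and without MT-/- saline 1 it was 0.66. On the MT+/+ side, the neutrophil alarmin S100a8 gave 132 and 566 against 103 and 127, so that this difference (-1.17, adjusted p = 0.565) lay on MT+/+ saline 2.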

How the data were processed

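Total RNA from whole mouse hearts was hybridised to 1-colour Affymetrix arrays, 2 per group in 4 groups. The authors deposited 1 linear intensity per probe set and array, made with GCOS 1.4 per the submitters' processing notes; neither the signal algorithm nor the scaling target nor detection calls were stated (not given in the sources used here). Of 45101 probe sets, 64 AFFX controls were left out. The deposited array medians lay between 80.03 and 87.4, and arrays were quantile-normalized. Probe sets at or above the array median on at least 2 of 8 arrays were kept (24751), of which 21469 carried a single symbol in the platform's annotation table, for 13008 genes. Values were analysed as log2(intensity + 16), which understates changes of dim probe sets.

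Differences come from limma 3.58.1 in R 4.3.3: 4 group means over all 8 arrays, then trended eBayes, with 4 residual and 4.66 prior degrees of freedom. P-values are two-sided with Benjamini-Hochberg adjustment over the tested probe sets, also where a gene is counted by its brightest probe set, and measure only the spread between these arrays. The smallest p that an exact test allows with 2 arrays in each group is 0.333. The script was tested on simulated data.

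Named were the metallothioneins; the 15 called genes with the largest difference per direction, filled up with those of smallest p; the 8 per direction whose probe sets all agreed without overlap, ranked by their smallest difference; and up to 4 members of each list with the smallest p. The members and lists were chosen with earlier results of these data known. Groups came from the labels. Alternatives covered scaling, pseudocount, filter, trend, the arrays fitted, a replicate block, the mean of a gene's probe sets and leaving out each array. Gene order and promoters came from RefSeq (GRCm38.p6).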

Additional observations from a re-analysis of the deposited data

How the results depend on the processing

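With 2 arrays per group, the number of calls depended on the settings and the directions did not: all 46 probe sets kept their direction under all 17 alternatives that tested probe sets, wherever they passed the filter. The 46 probe sets and 23 genes became 15 and 10 with the stricter filter, which tested 25 of the 46. Leaving out 1 array gave between 13 and 50 probe sets, between 6 and 23 genes, and between 551 and 1643 genes with agreeing probe sets; the lowest count, 13, came without MT+/+ saline 1, and the counts without MT+/+ saline 2, MT-/- saline 1 and MT-/- saline 2 were 19, 17 and 20. A lone array was then assumed to vary like the other groups. The number of genes with agreeing probe sets stayed at 551 without a DOX array and rose only without a saline array. A lone array overlaps the other group less readily than 2 arrays do, so that rise comes with the criterion. Whichever array was left out, 10 of the 46 kept their call: both probe sets of Cap1, Ndrg4 and Plaat1, and 1 each of Il15, Paip1, Xaf1 and Zfp991. Smim10l1 lost its call only without MT+/+ saline 1 (adjusted p = 0.0503). Under the settings other than leaving out an array, 27 kept it in each setting that tested them. The stricter filter tested only 25 of the 46, and the mean of a gene's probe sets was not part of this count. The counts under the other scalings, pseudocounts, no filter, no trend and the saline arrays alone lay within 1.5 times of 46, between 35 and 55.

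The labels number the replicates without saying that a number pairs samples. A fit with a replicate block called 209 probe sets (113 higher and 96 lower in MT-/-), among them all 46, and 105 genes. The difference between replicates 1 and 2 correlated at 0.542 across probe sets between the saline groups, and between 0.36 and 0.542 over all pairs of groups. With 2 numbers per group these data do not settle whether a number marks a pairing, and the cause of the higher count was not tested. Of 756 recomputed list medians, 78 moved by more than the spread between replicates.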
